A study of Mus musculus with 8 samples.

Results

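The genes described here are the Hox cluster genes, 33 of the 18193 genes that the array measured with at least 1 probe set of their own. They were chosen by name: a symbol of Hoxa, Hoxb, Hoxc or Hoxd followed by a number in the platform annotation, without antisense transcripts. The mouse reference holds 39 such genes, and 6 of them had no probe set of their own here. The 33 measured genes comprised 9 of 11 in the Hoxa cluster, 9 of 10 in Hoxb, 7 of 9 in Hoxc and 8 of 9 in Hoxd. Together they had 48 probe sets, and each gene was read from its brightest one.

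Messenger RNA was measured on 8 Affymetrix arrays, each with cells of 1 C57/B6 mouse. The cells were fetal liver haematopoietic stem cells sorted as Lin-Sca+Kit+, that is, without lineage markers and with Sca-1 and Kit on the surface. The groups were wild type (WT, 2 arrays), ADAR1 +/- (heterozygous, 3 arrays) and ADAR1 -/- (null, 3 arrays), and no treatment was named for any of them. WT and heterozygous arrays together are called the controls (5 arrays). The sources used here do not give the age of the fetuses, the part of Adar deleted, or whether the deletion was limited to a tissue.

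Hox genes encode homeodomain transcription factors that lie in 4 clusters, in an order that mirrors where along the body axis each is active. Genes with the same number in different clusters are paralogs. In blood-forming cells the Hoxa genes of the middle and posterior part of the cluster and several Hoxb genes are known to be active in stem and progenitor cells and to be switched off as the cells mature. Hoxa9, with its cofactor Meis1, is best known for sustaining stem cell self-renewal and for its role in acute leukaemia. Trithorax proteins such as Kmt2a keep Hox genes on, and Polycomb complexes keep them off. ADAR1 is an enzyme that changes adenosine to inosine in double-stranded RNA.

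Hox promoters are usually rich in CpG dinucleotides, the sites that DNA methylation and CpG-binding chromatin proteins recognise. Promoter windows from RefSeq (build GRCm38.p6, 250 bases before to 50 bases after the start of transcription) were found for 19 of the 33 measured genes, 21 windows in all. In these 21 windows the CpG count over that expected from base content had a median of 0.596, against 0.384 over all 32851 promoter windows. It exceeded 0.6 in 47.6% of the Hox windows and in 35.8% of all. The Hox windows held a median of 15 CpG sites, against 7.0 over all. Their median GC content was 58.0% against 52.7%. Of these, 3 windows of the Hoxa cluster on chromosome 6 are printed, all 5′ to 3′ on the minus strand with each CpG in capitals, because they span the range of CpG content beside genes that were seen on most arrays (Hoxa7, Hoxa9) or on none (Hoxa13). The Hoxa7 window is chr6:52218524-52218823, with 9 CpG sites. The Hoxa9 window is chr6:52227321-52227620, with 4. The Hoxa13 window is chr6:52260831-52261130, with 45 CpG sites and a GC content of 81.0%.
Hoxa7: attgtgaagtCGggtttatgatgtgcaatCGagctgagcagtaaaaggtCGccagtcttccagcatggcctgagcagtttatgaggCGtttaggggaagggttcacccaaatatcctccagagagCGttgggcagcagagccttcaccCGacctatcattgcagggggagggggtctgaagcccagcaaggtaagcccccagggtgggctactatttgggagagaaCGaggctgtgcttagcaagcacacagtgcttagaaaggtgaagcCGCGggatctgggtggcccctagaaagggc
Hoxa9: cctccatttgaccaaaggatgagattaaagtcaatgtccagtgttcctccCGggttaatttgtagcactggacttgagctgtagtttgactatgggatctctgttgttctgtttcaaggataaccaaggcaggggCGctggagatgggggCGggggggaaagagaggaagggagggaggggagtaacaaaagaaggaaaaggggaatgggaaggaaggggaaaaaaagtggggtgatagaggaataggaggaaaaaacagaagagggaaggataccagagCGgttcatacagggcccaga
Hoxa13: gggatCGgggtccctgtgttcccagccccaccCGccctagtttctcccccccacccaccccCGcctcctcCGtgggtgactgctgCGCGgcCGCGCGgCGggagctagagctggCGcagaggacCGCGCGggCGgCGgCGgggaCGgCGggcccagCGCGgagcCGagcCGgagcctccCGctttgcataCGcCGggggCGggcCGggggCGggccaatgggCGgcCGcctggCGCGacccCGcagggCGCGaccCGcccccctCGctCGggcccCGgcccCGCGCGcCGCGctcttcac

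The CpG-poor windows were not a mark of the detected genes as a whole: the Hoxa3 window, of the gene seen on every array, held 20 CpG sites. The same windows were searched on both strands for motifs of factors that could bear on these cells. The core of the interferon-stimulated response element (GAAANNGAA) was in 1 of 21 windows, that of Hoxa9, on the strand opposite to the gene (4.76%, against 8.56% of all promoter windows). The gamma-activated sequence (TTCNNNGAA) was in 0 of 21, against 8.3% of all windows. A joint Hox-Pbx site (TGATTNAT) was in 2 of 21, of Hoxa2 and of 1 of the Hoxd11 starts, against 3.22% of all windows. The first 2 motifs share letters and can overlap. A match says only that these letters are present.

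The array carries 27 control probe sets for transcripts of Bacillus, a bacterium. The highest of these was taken as the background of an array and lay between 2.63 and 3.22 on the log2 intensity scale. It was highest on null array 1 (3.22) and lowest on heterozygous array 1 (2.63). Probe sets above it made up 45.6% to 61.2% of all 45037 on control arrays and 40.0% to 46.4% on null arrays. Genes above background on all arrays of a group made up 50.2% of all genes in WT, 55.1% in heterozygous and 41.1% in null cells. Of 18 measured stem and progenitor markers, 14 were above background on all WT arrays, 14 on all heterozygous and 11 on all null arrays. Lmo2 (log2 9.40 to 10.41) and Gata2 (6.14 to 9.33), transcription factors of stem and progenitor cells, were well above it on every array. Kit, a sorting marker, read 3.22 to 4.55. Procr was at background on every array, and Flt3 and Cd27 were at background on most. Ly6a, which encodes Sca-1, had no probe set of its own. All 5 megakaryocyte markers were above background on every array. Their summed log2 level was 12.12 to 12.46, against 11.50 to 11.88 for the stem and progenitor markers. Of 6 lymphoid markers, 0 were above background throughout any group. The brightest Adar probe set was higher in null cells (linear 59.7, 144 and 176) than in controls (7.66 to 17.6). Its other 2 probe sets differed by 0.24 and -0.16 log2 units, and since the positions of the probes are not known here, none of them checks the genotype. Precision is limited throughout by how few arrays there were.

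Most Hox transcripts were not detected in these sorted cells, whatever the genotype. In WT cells 3 of 33 Hox genes were above background on both arrays (Hoxa3, Hoxb7 and Hoxb9), which is 9.09% of them, against 50.2% of all genes. In heterozygous cells 4 were above it on all arrays (Hoxa3, Hoxa7, Hoxa9 and Hoxb9), 12.1% against 55.1% of all genes. In null cells 2 were (Hoxa3 and Hoxa7), 6.06% against 41.1% of all genes. Without WT array 1 or WT array 2 the WT count was 7 or 6, and without null array 1 the null count was 4. At background on every array of the group were 23 of 33 Hox genes in WT, 23 in heterozygous and 21 in null cells, against 33.9%, 25.8% and 31.4% of all genes. In bulk RNA of this kind, fewer cells that express a gene and less RNA per cell cannot be told apart.

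By cluster, the genes seen throughout a group all belonged to Hoxa and Hoxb. In Hoxa, 1 gene was above background on all WT, 3 on all heterozygous and 2 on all null arrays. In Hoxb the counts were 2, 1 and 0, and in Hoxc and Hoxd they were 0 in all groups. On no array at all were 4 of 9 Hoxa, 4 of 9 Hoxb, 4 of 7 Hoxc and 5 of 8 Hoxd genes above background. By position, 5 of 10 anterior genes (numbers 1 to 4), 3 of 9 central genes (5 to 8) and 9 of 14 posterior genes (9 to 13) were never above it. Those 17 genes were Hoxa2, Hoxa4, Hoxa11, Hoxa13, Hoxb1, Hoxb3, Hoxb6, Hoxb13, Hoxc6, Hoxc9, Hoxc10, Hoxc13, Hoxd1, Hoxd8, Hoxd9, Hoxd10 and Hoxd11. At this signal they were not detectable, which does not show that they are absent.

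**Figure D1:**
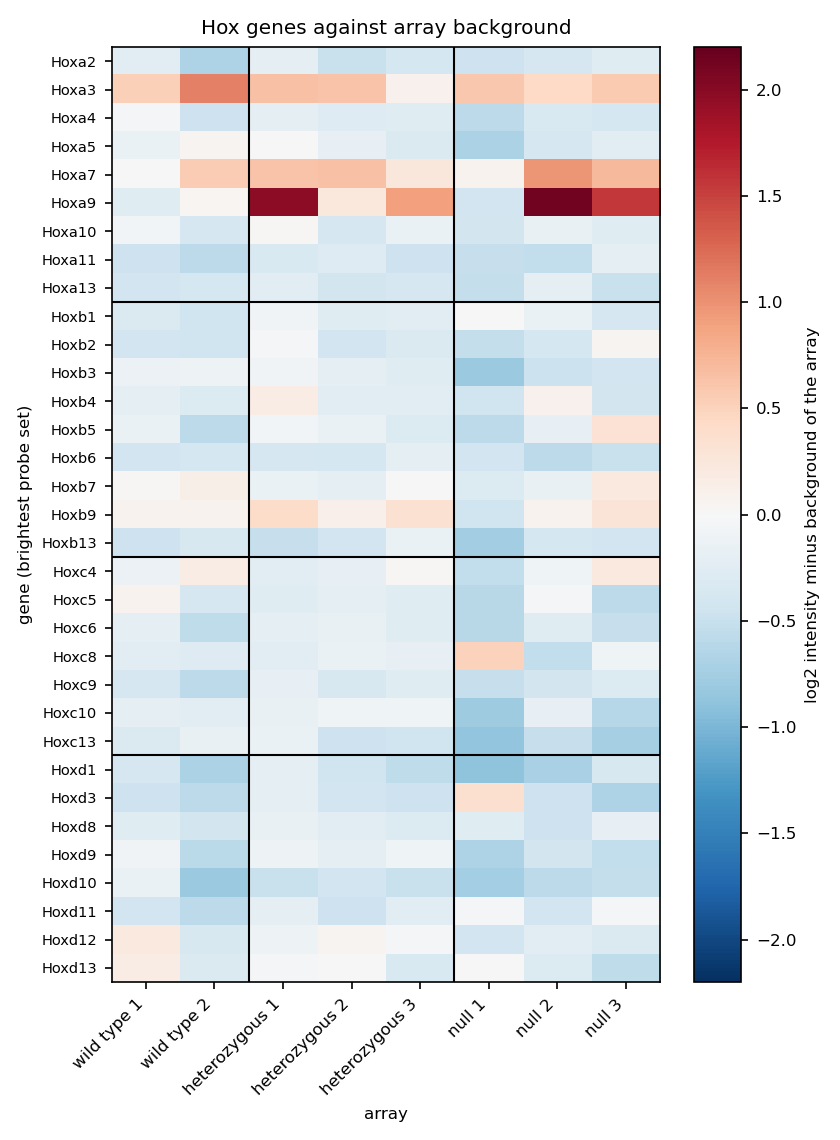
Log2 intensity of the brightest probe set of each of the 33 Hox genes (rows, in cluster order) on each of the 8 arrays (columns, by genotype), minus the background of that array. Red is above and blue below background; Hoxa3 is red on all 8 arrays, Hoxa7 and Hoxa9 on most, and nearly all of Hoxc and Hoxd is blue.

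Hoxa3 encodes a factor best known for pharyngeal organs and was the one Hox gene above background on all 8 arrays. Its brightest probe set read 3.35 and 4.14 (log2) in WT, 3.28, 3.43 and 2.84 in heterozygous and 3.81, 3.33 and 3.61 in null cells. WT array 2 was the highest and heterozygous array 3 the lowest, and the groups overlapped. Null minus all controls was 0.18 ± 0.28 log2 units (SE; limma, adjusted p = 0.820), and heterozygous minus WT was -0.56 ± 0.30 (adjusted p = 0.891). The first of these was 0.36 without WT array 2, 0.0346 without heterozygous array 3, and 0.06 and 0.30 without null arrays 1 and 2. Its second probe set read 2.90 and 2.85 in WT, 2.54, 2.74 and 2.87 in heterozygous and 3.04, 3.09 and 3.02 in null cells. There all 3 null arrays lay above all 5 control arrays, by a mean of 0.27 ± 0.12 (adjusted p = 0.444), but only 1 null array was above its own background. The remaining 2 probe sets of Hoxa3 each differed by -0.05 and were above background on 1 array and on none.

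Hoxa7, a central Hoxa gene active in blood progenitors, was above background on 7 of 8 arrays. It read 2.81 and 3.58 in WT, 3.26, 3.45 and 2.98 in heterozygous and 3.30, 3.87 and 3.75 in null cells. Null arrays 2 and 3 were the highest of all, null array 1 lay among the controls, and WT array 1 was the lowest. The difference between null and all controls was 0.42 ± 0.22 log2 units, a ratio of 1.34, and did not pass the test (limma, adjusted p = 0.508).

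Hoxa9 had the widest spread of the family. On its brightest probe set the WT arrays read 2.56 and 3.08 (log2), the heterozygous arrays 4.60, 3.04 and 3.65, and the null arrays 2.80, 5.02 and 4.60. On the linear scale that is 5.90 and 8.43 in WT, 8.21 to 24.2 in heterozygous, and 6.96, 32.4 and 24.3 in null cells. Null array 1 was thus below background while the other null arrays and heterozygous array 1 were well above it, and the groups overlapped. Null minus WT was 1.32 ± 0.72 log2 units (limma, adjusted p = 0.747), heterozygous minus WT 0.94 ± 0.72 (0.908) and null minus heterozygous 0.38 ± 0.65 (0.807). Against all controls null cells differed by 0.76 ± 0.60 (adjusted p = 0.648), a value that moved between 0.32 and 1.43 as single arrays were left out. Over all alternatives its adjusted p ran from 0.419 to 0.843.

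The other Hoxa9 probe set did not follow the first. It read 3.02 and 2.57 in WT, 2.64, 2.70 and 3.38 in heterozygous and 2.60, 2.97 and 2.75 in null cells, and was above background on 4 arrays. Here heterozygous array 3 was the highest, and null minus all controls was -0.09 ± 0.21 (limma, adjusted p = 0.886). Which part of the transcript each probe set covers is not known here.

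**Figure D2:**
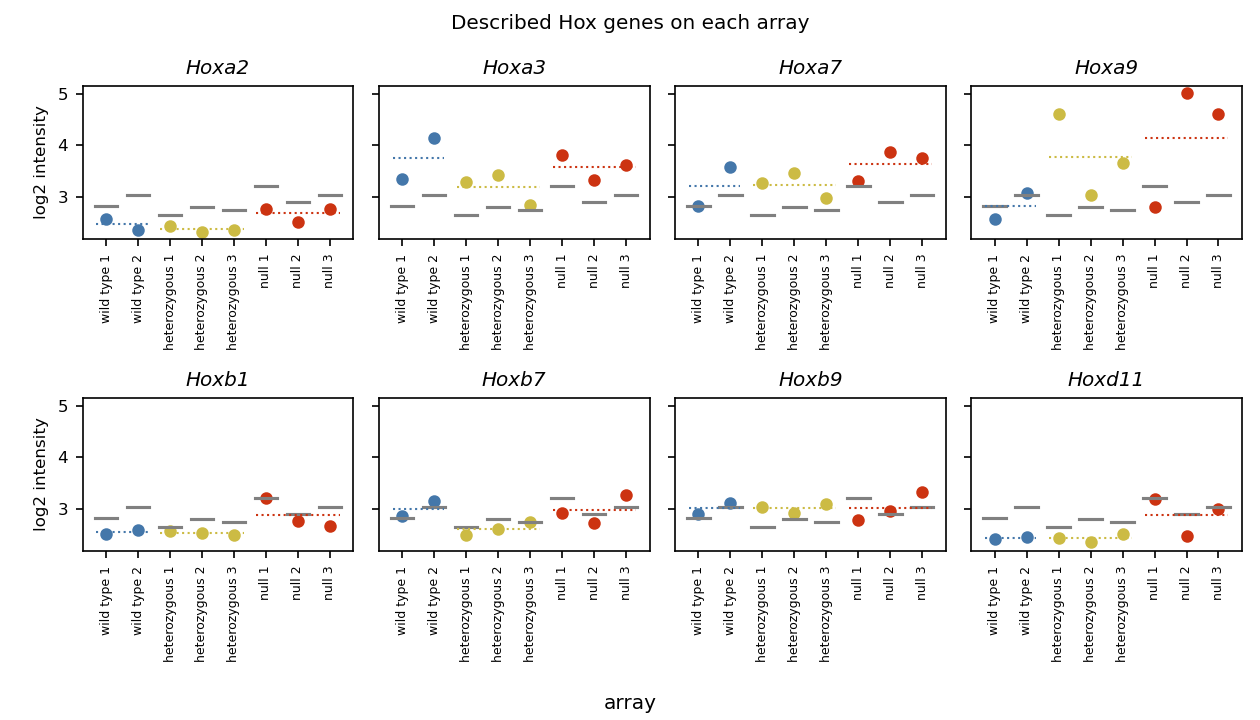
Log2 intensity of the brightest probe set of 8 Hox genes on each array (points; blue WT, yellow heterozygous, red null), with the group mean as a dotted line and the background of each array as a grey bar. Hoxa9 runs from 2.56 to 5.02 with null array 1 below background, while Hoxa2, Hoxb1 and Hoxd11 lie below the grey bar on every array.

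Among the Hoxb genes, Hoxb9 was the most evenly detected. It read 2.90 and 3.11 in WT, 3.03, 2.92 and 3.08 in heterozygous and 2.78, 2.96 and 3.32 in null cells, above background on 7 of 8 arrays. Its margins were small: at most 0.40 above the background of an array, with null array 1 0.43 below. The null arrays held both the lowest and the highest value. Null minus all controls was 0.01 ± 0.14 (limma, adjusted p = 0.980), and its sign turned when WT array 1 (-0.02), heterozygous array 2 (-0.01) or null array 3 (-0.14) was left out and with cyclic loess normalization (-0.03).

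Hoxb7 was above background in WT cells on both arrays (2.85 and 3.15), in heterozygous cells on none (2.48, 2.61 and 2.74) and in null cells on array 3 alone (2.91, 2.72 and 3.26). The WT and heterozygous arrays did not overlap. All heterozygous arrays lay below both WT arrays for 8 of 33 Hox genes, and above them for 0. The matching share over all genes was not computed, so this is no result about Hoxb7. The WT mean was 1.21-fold above the background of the heterozygous arrays (2.63, 2.80 and 2.74). The WT arrays had higher backgrounds of their own (2.83 and 3.03), so that fold is no firm lower bound on expression. The heterozygous minus WT difference of -0.39 ± 0.20 log2 units did not pass the test (limma, adjusted p = 0.891). Null minus heterozygous was 0.35 ± 0.18 (adjusted p = 0.501), with overlapping arrays and 1 of 3 null arrays above background, so no fold is given. Null minus WT was -0.03 ± 0.20 (adjusted p = 0.979).

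Hoxb4, long studied for expanding stem cells in culture, and Hoxa10, a posterior gene of progenitors, are named here from that background after their values were seen. Hoxb4 read 2.63 and 2.73 in WT, 2.80, 2.56 and 2.48 in heterozygous and 2.78, 2.97 and 2.64 in null cells, above background on heterozygous array 1 and null array 2 only. Hoxa10 read 2.76 and 2.66, then 2.67, 2.44 and 2.59, then 2.81, 2.72 and 2.76, and passed background on heterozygous array 1 alone. Neither gene stood clear of background in any group.

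The 25 Hox genes outside the 8 plotted by array ran from 2.12 to 3.72 on the log2 scale, with a median of 2.56, and none exceeded the background of its array by more than 0.51. Of these, 14 were never above background. The highest single values were those of Hoxc8 (3.72) and Hoxd3 (3.58) on null array 1, the array with the highest background. On the other null arrays Hoxc8 read 2.35 and 2.94 and Hoxd3 2.42 and 2.37, so neither value recurred. Of the 6 Hox genes above background on a single array, 4 owed it to a null array. The matching share over all genes was not computed, so this count is no result about null cells.

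No Hox gene passed the test in any comparison of genotypes. Null minus WT gave 0 of 33 at an adjusted p under 0.05 by limma, against 0.517% of all genes, and the smallest adjusted p of a Hox gene was 0.678. Null minus heterozygous gave 0 of 33, against 0.77% of all genes (smallest 0.441). Heterozygous minus WT gave 0 of 33, against 0.0% of all genes (smallest 0.891). Null minus all controls, which shares its arrays with the others, gave 0 of 33, against 0.934% of all genes (smallest 0.371). Beside shares this small, counts of 0 among 33 genes are near the background and are no result about the Hox genes. Data were also simulated with the same groups. Null against all controls then called 28% of probe sets shifted by 1 log2 unit and 72% of those shifted by 2. Shifts of 1 unit were thus mostly missed in the simulation, which shifted 50 of 45037 probe sets by each amount. The rate called after adjustment also depends on that share. The shifted probe sets came from the whole array with their own spreads, and no background floor was modelled. These rates therefore do not say how often a Hox gene near background would be called.

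At an unadjusted p under 0.05, 0 Hox genes stood out in null minus WT (9.29% of all genes did) and 0 in heterozygous minus WT (5.9% of all genes). There was 1, Hoxa2, in null minus heterozygous (13.0% of all genes), and there were 3 in null minus all controls, Hoxa2, Hoxb1 and Hoxd11 (13.5% of all genes). All 3 read higher in null cells and all 3 were at background on every array, so no fold is given for them. Without null array 2 the last count was 8 of 33 beside 19.2% of all genes, and without heterozygous array 2 it was 0 beside 10.7%.

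Hoxd11, a posterior gene of limb and kidney, had the smallest p of the family. It read 2.41 and 2.45 in WT, 2.43, 2.35 and 2.51 in heterozygous and 3.18, 2.47 and 2.99 in null cells. Null array 2 lay among the controls, and null arrays 1 and 3 were the high ones. The difference between null and all controls was 0.45 ± 0.17 log2 units (limma, unadjusted p = 0.0273, adjusted p = 0.371). It was 0.30 without null array 1 and 0.08 with a pseudocount of 32 added to the linear values.

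Hoxb1, a hindbrain gene, read 2.51 and 2.58 in WT, 2.56, 2.53 and 2.48 in heterozygous and 3.21, 2.75 and 2.66 in null cells. Here all null arrays were above all control arrays, null array 1 most, and the difference was 0.34 ± 0.14 (limma, unadjusted p = 0.0449, adjusted p = 0.425). It was 0.17 without null array 1 and 0.06 with a pseudocount of 32. Hoxa2, which patterns the second branchial arch, read 2.57 and 2.34, then 2.43, 2.31 and 2.34, then 2.77, 2.51 and 2.76. Its null arrays lay above all heterozygous arrays, and null array 2 lay below WT array 1. It differed by 0.28 ± 0.12 from all controls (unadjusted p = 0.0440, adjusted p = 0.424) and by 0.32 ± 0.13 from heterozygous (unadjusted p = 0.050, adjusted p = 0.441).

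Null arrays all lay above all control arrays for 2 of 33 Hox genes, Hoxc9 and Hoxb1, and all below them for 0. Of all genes, 4.19% lay above and 4.95% below in this way, so the Hox counts are near the background. Hoxc9 read 2.45 to 2.48 in controls and 2.71, 2.48 and 2.74 in null cells, below background on each array.

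Against heterozygous cells or all controls, small positive differences were common among the Hox genes in null cells, less so against WT. The negative controls moved with these differences. Null minus all controls was positive for 27 of 33 Hox genes and negative for 6, with a median of 0.16 log2 units against 0.03 over all genes and 0.12 over the Bacillus controls. Null minus heterozygous was positive for 29 of 33, with a median of 0.18 against 0.06 over all genes and 0.21 over the Bacillus controls. Heterozygous minus WT was negative for 28 of 33, with a median of -0.11 against -0.05 and -0.12. Null minus WT was positive for 19 and negative for 14, with a median of 0.04 against -0.00 and 0.06. In each comparison the Hox median was close to that of the control probe sets, whose transcripts mouse cells do not have. Quantile or cyclic loess normalization brought the Hox median in null minus heterozygous to 0.09 or 0.07.

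The same was seen array by array. The median over the Hox genes was 2.63 and 2.66 in WT, 2.47, 2.56 and 2.48 in heterozygous and 2.71, 2.56 and 2.72 in null cells. The median Bacillus control was 2.41 and 2.50, then 2.34, 2.36 and 2.36, then 2.56, 2.36 and 2.51. Null arrays 1 and 3 were the highest for both, and null array 2 read like the heterozygous arrays for both. The distance between the medians was 0.23 and 0.15 in WT, 0.13, 0.20 and 0.12 in heterozygous and 0.15, 0.20 and 0.21 in null cells, and it overlapped between the groups. The part of this shared offset in single Hox differences was not tested.

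**Figure D3:**
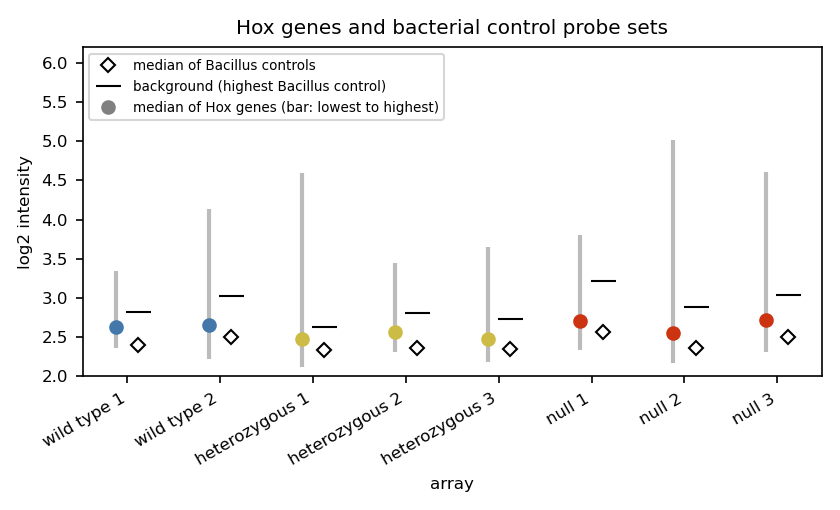
Median log2 intensity over the 33 Hox genes on each array (coloured points; the grey bar runs from the lowest to the highest gene), beside the median of 27 Bacillus control probe sets (diamonds) and their highest value, the background (black bars). The Hox medians stay between 2.47 and 2.72, above the control medians by 0.12 to 0.23 and below the background of every array.

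Where a Hox gene had several probe sets, their differences did not always share a sign. Of 11 such genes, 5 had probe sets of both signs in null minus all controls: Hoxa3, Hoxa5, Hoxa9, Hoxb3 and Hoxd13. Neither probe set of Hoxb3 was above background on any array, and those of Hoxd13 differed by only -0.03 and 0.06. The share over all genes with several probe sets was not computed. With all probe sets of a gene averaged, the count of Hox genes past the threshold was again 0 in every comparison. Probe sets that name Hoxb7 and Hoxb8 together or Hoxd3 and Hoxd4 together were above background on no array.

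Hox proteins bind DNA together with TALE cofactors, which carry homeodomains too. Of 11 measured TALE cofactors 6 were above background on all arrays of each group, beside 50.2%, 55.1% and 41.1% of all genes in WT, heterozygous and null cells. None passed the test in any comparison; in null minus all controls an unadjusted p under 0.05 was reached by 2 that were higher and 2 that were lower, beside 13.5% of all genes, and the list's median was 0.17 against 0.03 over all genes. Meis1 read 7.10 and 5.81 in WT, 5.69, 5.67 and 6.04 in heterozygous and 5.49, 7.24 and 3.80 in null cells. The null arrays held both its highest and its lowest value, and the difference was -0.55 ± 0.71 (limma, adjusted p = 0.783), which became 0.31 without null array 3. Pbx2 read 8.33 to 8.80 in controls and 7.32, 8.0 and 6.91 in null cells, which did not overlap. Its difference of -1.17 ± 0.24 did not pass (limma, adjusted p = 0.110), but did without null array 2 (-1.46, adjusted p = 0.0186). Pbx3 differed by 1.5 ± 0.58 with overlapping arrays (adjusted p = 0.394).

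The chromatin regulators of Hox clusters gave no call either. Of 19 measured trithorax and Dot1l complex genes, 18 or 19 were above background throughout each group. Of all genes, 50.2%, 55.1% and 41.1% were so in WT, heterozygous and null cells. None passed in any comparison. In null minus all controls an unadjusted p under 0.05 was reached by 1 gene that was higher and 4 that were lower (13.5% of all genes). The median was -0.37, against 0.03 over all genes. The upper quartile over all probe sets was 3.98, 4.40 and 4.01 on null arrays and 4.20 to 4.51 on control arrays. Its part in the medians of these lists was not tested. Kmt2a, the methyltransferase that maintains Hox expression, read 3.74 and 3.54 in WT, 5.15, 5.24 and 5.18 in heterozygous and 5.6, 4.29 and 8.03 in null cells (1.40 ± 0.84, limma, adjusted p = 0.555). Its WT arrays were the lowest and null array 3 stood above the rest; the difference was 0.37 without null array 3 and 2.24 without null array 2. Its partner Men1 differed by -0.35 ± 0.75 (adjusted p = 0.870), and by 0.41 without null array 1. The members with the largest differences were Mllt1, a reader in the elongation complex (-1.62 ± 0.53, adjusted p = 0.318), and the acetyltransferase Kat8 (1.51 ± 0.60, adjusted p = 0.407). Kat8 was 0.68 without null array 2.

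Of 26 measured Polycomb genes, 20 were above background throughout WT, 22 throughout heterozygous and 19 throughout null cells. The shares over all genes were 50.2%, 55.1% and 41.1%. None of the Polycomb genes passed in any comparison. In null minus all controls an unadjusted p under 0.05 was reached by 2 that were higher and 5 that were lower (13.5% of all genes). The median was -0.31, against 0.03 over all genes. Ezh2, the methyltransferase of the second repressive complex, read 7.29 to 7.69 in controls and 7.49, 7.71 and 7.96 in null cells (0.15 ± 0.15, limma, adjusted p = 0.720). Bmi1, which sustains stem cell self-renewal, read 3.89 and 3.99 in WT, 5.08, 4.42 and 5.25 in heterozygous and 3.81, 3.79 and 3.55 in null cells. All its null arrays lay below all controls, WT close to them, and the difference was -0.81 ± 0.34 (adjusted p = 0.428). Ring1 (1.91 ± 0.78, adjusted p = 0.418) and Bap1 (-1.72 ± 0.78, adjusted p = 0.458) had the largest differences of the list. Bap1 was -0.56 without null array 1.

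Genes upstream of the clusters or flanking them were measured for 19 of 20. The Cdx genes, which activate Hox genes in the embryo and in early blood, lay near background: the group means were 2.29 to 2.30 for Cdx4, 2.36 to 2.42 for Cdx1 and 2.86 to 2.90 for Cdx2. None of the 19 passed in any comparison, and the median in null minus all controls was -0.03, against 0.03 over all genes. The largest differences were those of Mtx2 (-1.35 ± 0.66, limma, adjusted p = 0.482) and Atf2 (-1.28 ± 0.55, adjusted p = 0.437), both neighbours of the Hoxd cluster. Without null array 3 they were -0.36 and -0.57, and Atf2 was -1.92 without null array 2.

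Of 18 transcripts linked to Hox factors in stem cells, 1 passed the test in null minus all controls (0.934% of all genes did), Pim1, a kinase that promotes survival and a reported target of Hoxa9. It read 7.49 and 7.99 in WT, 7.73, 7.69 and 7.56 in heterozygous and 9.21, 10.18 and 9.45 in null cells. All null arrays were above all controls, and Pim1 rose by 1.92 ± 0.23 log2 units, or 3.80-fold (limma, adjusted p = 0.0124; 0.00162 to 0.0494 over the alternatives). Against heterozygous cells alone it rose by 1.96 ± 0.27 (adjusted p = 0.0462), a call that was lost without any one array except null array 2 (adjusted p up to 0.194). Against WT alone the difference of 1.88 ± 0.31 did not pass (adjusted p = 0.0988).

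The rest of that list did not pass. Over all 18 the median was 0.17, against 0.03 over all genes. An unadjusted p under 0.05 was reached by 4 that were higher and 2 that were lower, beside 13.5% of all genes. Tgfbr2, a receptor of TGF-beta, read 3.31 and 3.29 in WT, 3.91, 3.41 and 4.20 in heterozygous and 5.07, 5.86 and 7.27 in null cells. Its null arrays were all above the controls, by 2.44 ± 0.47 (limma, adjusted p = 0.0894), and the difference passed without null array 1 (2.94, adjusted p = 0.0450).

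Summed markers of hepatocytes and of macrophages were lower on all null arrays than on all control arrays. A sum is led by its brightest members. In null minus all controls 1 hepatocyte marker, Afp, and 0 macrophage markers passed the test, beside 0.934% of all genes. The summed log2 level of 10 hepatocyte and hepatoblast markers was 7.78 to 10.14 on control arrays and 6.33 to 6.78 on null arrays, and the number above background throughout the group was 6 in WT, 7 in heterozygous and 1 in null cells. For 10 macrophage markers the sums were 7.22 to 9.41 and 6.03 to 6.29, with 5, 6 and 1 above background. Over all genes the shares above background throughout WT, heterozygous and null cells were 50.2%, 55.1% and 41.1%. The sums for 10 stromal markers overlapped, at 6.18 to 6.44 on control and 6.22 to 8.28 on null arrays. All 10 had a positive difference in null minus all controls, and 0 reached an unadjusted p under 0.05 by limma. Their median was 0.11, against 0.03 over all genes and 0.12 over the Bacillus controls. The part of these other cells in the differences of Hox genes and cofactors was not tested.

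**Figure D4:**
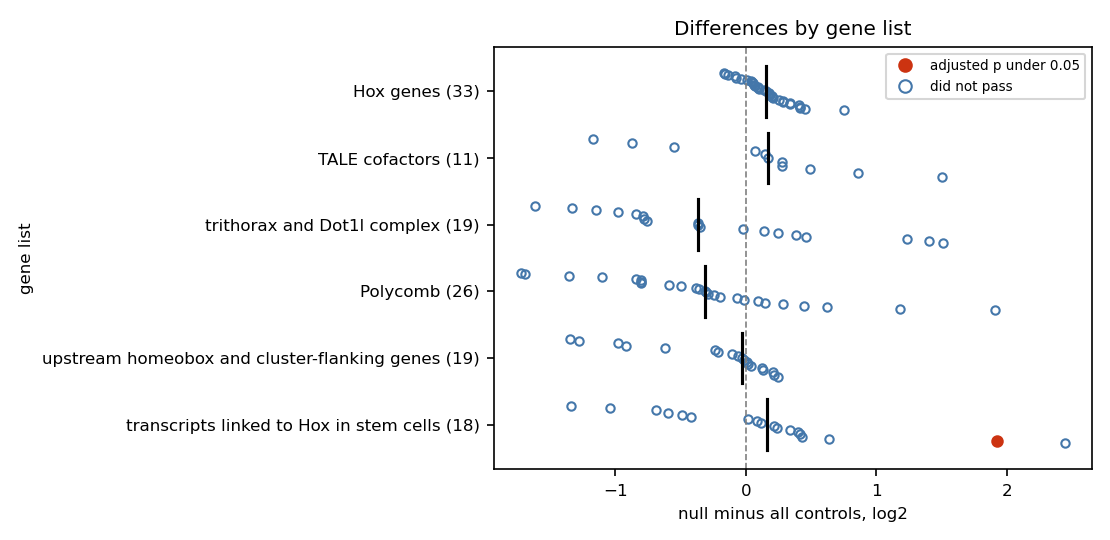
Null minus all controls in log2 units (horizontal axis) for each gene of the Hox family and of 5 lists of related genes (rows, with the number of genes measured); black bars are medians, and filled red points passed an adjusted p of 0.05. The Hox genes lie between -0.17 and 0.76, most other lists spread from below -1 to above 1, and Pim1 is the one filled point.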

How the data were processed

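Per the labels' protocols, total RNA (Qiagen kit) was amplified and biotin-labelled with a Nugen kit. Per the submitters' processing notes, the authors summarised the arrays with RMA; its version, software and centring are not stated. What was deposited is 1 linear intensity for each probe set and array, and quartiles differ between arrays. Log2 was taken of these intensity values. Of 45101 probe sets, 64 controls were left out and 45037 tested; 34945 named 1 gene, 932 several and 9160 none, and 34741 were given the reference's symbol through their gene number. A gene was read from the probe set with the highest mean log2 over all arrays. With limma 3.58.1 (R 4.3.3; lmFit, eBayes), a 3-group model gave the pairwise differences and a 2-group model null minus all controls. All p-values are two-sided and were adjusted over the 45037 probe sets with the Benjamini-Hochberg method, with a threshold of 0.05. Where a group was at background on all its arrays, a fold sets the mean of the other group against that background. Backgrounds differ between arrays, so it is no firm lower bound. Such a fold is printed only if the other group was above background on all its arrays, a restriction chosen after the values were seen. Errors are limma standard errors. Simulated data in which 50 probe sets were shifted by each amount served to test the fits.

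The labels say that each sample came from 1 mouse and give no batch. Replicate numbers follow the order of deposit and pair nothing. The Hox genes, the related lists and the rules for naming genes were chosen with earlier results of these data known. Values in every array were given for Hox genes above background throughout a group or with an unadjusted p under 0.05. From the related lists came members past the threshold, Meis1, Kmt2a, Men1, Ezh2, Bmi1 and the 2 largest differences of each list. The remaining cell type lists, endothelial, erythroid, myeloid and mast, had 6, 5 and 4 of 8, 5, 4 and 4 of 6, 4, 3 and 2 of 7, and 0, 0 and 0 of 4 genes above background throughout WT, heterozygous and null arrays. The shares over all genes were 50.2%, 55.1% and 41.1%. Alternatives were other normalization, a pseudocount of 32, a filter at the median level, mean probe sets, array weights, a variance trend, fewer groups and leaving out each array.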

Additional observations from a re-analysis of the deposited data

How the results depend on the processing

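The count of Hox genes past the threshold was 0 under every alternative run, and of 116 recomputed differences of the described Hox genes 0 passed (limma, smallest adjusted p 0.0515). The count of all probe sets past it moved more. In null minus WT it was 147, and 62 with the pseudocount, 90 with array weights, 95 with a variance trend, 4 with the 2 groups alone and 65 to 340 without single arrays. In null minus heterozygous it was 226, and 126 with the pseudocount, 140 with the trend and 63 to 581 without single arrays. In heterozygous minus WT it was 1, and 5 with the pseudocount, 0 with the filter, mean probe sets, the trend or 2 groups, and 0 to 164 without single arrays. In null minus all controls it was 262, and 156 to 792 without single arrays. The Hox median moved with the filter, which left 4 Hox genes, to 0.23 in null minus WT, 0.39 in null minus heterozygous, 0.0200 in heterozygous minus WT and 0.30 in null minus all controls. In null minus WT it ran from 0.0315 to 0.15 without single arrays and was 0.0261 after quantile normalization, 0.0114 after cyclic loess and 0.00653 with the pseudocount. Quantile normalization gave 0.0942 in null minus heterozygous and -0.0280 in heterozygous minus WT. Cyclic loess gave 0.0665 and -0.0110 there and 0.0767 in null minus all controls. The pseudocount gave 0.0311, -0.0163 and 0.0271. With single arrays left out, Hox genes were counted above background on all remaining arrays of a group, an alternative added after seeing the data. That count ran from 6 to 7 in WT and 2 to 4 in null cells. Taken on each array by itself, the count was 6 and 7 in WT, 7, 6 and 5 in heterozygous and 5, 5 and 8 in null cells. Hoxb9 turned to -0.0287 with cyclic loess and ran from -0.14 to 0.13 without single arrays. Meis1 ran from -1.41 to 0.31 and Men1 from -1.25 to 0.41 without single arrays, and Men1 was 0.0192 with array weights. Of 241 recomputed differences of related genes, 226 kept direction and side of the threshold. The cause of these changes was not tested, beyond fewer genes under the filter and fewer arrays in the fits without one. Where WT is left with 1 array, that array is assumed to vary like the other groups. No paired analysis was possible because the labels give no replicate numbers shared between groups. Signals near background limit the Hox values.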
